A study of Mus musculus with 5 samples.

Results

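Immediate early and Gadd45 genes are switched on within minutes of a growth, stress or handling signal, and 10 of them were followed here in neonatal mouse liver: Fos, Jun, Egr1, Ier2, Dusp1, Atf3, Btg2, Gadd45a, Gadd45b and Gadd45g. They were found by gene symbol, 1 row each, among 36401 Ensembl identifiers, and all 10 were among the 13959 genes with enough counts to be tested. RNA came from frozen lobe 1 of the liver of BALB/C pups on day 10 of life. The groups were Mdr2+/+ (wild-type, 2 libraries) and Mdr2+/- (heterozygous, 3 libraries), kept together as littermates in a colony made by crossing Mdr2-/- mice back to BALB/c. Mdr2 is an earlier name for Abcb4, the hepatocyte pump that puts phospholipid into bile. The labels do not say that each library is a separate pup, so the p-values measure only the spread between these libraries. Below, a liver means the source of a library, and livers so named may not be separate pups.

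Immediate early genes need no new protein for their induction. Mitogen-activated protein kinases (MAPK) phosphorylate transcription factors that already sit on their promoters, and the messages appear fast and decay fast. Fos, Jun and Atf3 proteins pair with each other on AP-1 and CRE sites of target genes, and Dusp1 removes the phosphates that keep the MAPK active. Gadd45 proteins bind the upstream kinase Map3k4 and cell cycle proteins. In liver the group is known for its rapid rise after partial hepatectomy, fasting, tissue dissociation and delayed freezing.

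Of the 10 genes, Gadd45b alone passed the test for a genotype difference. It was 2.31-fold lower in heterozygous livers, and 0 genes passed as higher. The members' share called lower, 10%, stood beside 5.41% of all tested genes called lower and 12% called in either direction. Called means an adjusted p under 0.05 in edgeR's quasi-likelihood test, where p-values were adjusted by Benjamini-Hochberg across the whole table of tested genes. At an unadjusted p under 0.05, 1 member was lower (Gadd45b) and 1 higher (Btg2), and DESeq2 and limma also called 1 member lower and 0 higher. Counts at the unadjusted cutoff, here and for the lists below, have no all-gene share beside them. They therefore show no excess or lack. The members' median log2 fold change, heterozygous minus wild-type, was -0.02, beside -0.00245 for all tested genes. Groups did not overlap in 2 members, against 45.5% of all tested genes. These were Btg2, higher in heterozygous livers (22.9% of all tested genes were higher without overlap), and Gadd45b, lower (22.7% of all).

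The promoters of 4 members are shown because the results turn on them: Gadd45b is the gene that fell, and Gadd45g, Jun and Dusp1 varied widely between livers of a single genotype. Each is the 250 bases before the RefSeq transcription start, written 5′ to 3′ on the gene's own strand (build GRCm38.p6). Capitals mark matches to the CRE core TGACGT, the full CRE TGACGTCA, the AP-1 variant TGACATCA, the EGR site GCGNGGGCG and the TATA box TATAAA, each searched on both strands.
Gadd45b, chr10:80929841-80930090, plus strand: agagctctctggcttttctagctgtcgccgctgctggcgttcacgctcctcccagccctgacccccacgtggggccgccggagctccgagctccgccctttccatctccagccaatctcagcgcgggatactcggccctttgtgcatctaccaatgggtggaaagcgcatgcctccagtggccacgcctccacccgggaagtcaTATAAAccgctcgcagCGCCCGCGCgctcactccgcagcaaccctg
Gadd45g, chr13:51846425-51846674, plus strand: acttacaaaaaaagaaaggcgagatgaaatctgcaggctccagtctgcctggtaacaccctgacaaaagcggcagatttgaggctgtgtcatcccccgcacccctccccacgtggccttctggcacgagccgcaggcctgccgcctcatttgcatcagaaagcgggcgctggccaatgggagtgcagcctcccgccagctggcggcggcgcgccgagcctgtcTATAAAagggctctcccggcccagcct
Jun, chr4:95052223-95052472, minus strand: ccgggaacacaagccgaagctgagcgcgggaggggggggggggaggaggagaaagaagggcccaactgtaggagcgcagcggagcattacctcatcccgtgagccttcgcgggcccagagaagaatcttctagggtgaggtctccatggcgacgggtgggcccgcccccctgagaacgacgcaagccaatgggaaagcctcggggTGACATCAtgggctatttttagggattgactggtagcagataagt
Dusp1, chr17:26508473-26508722, minus strand: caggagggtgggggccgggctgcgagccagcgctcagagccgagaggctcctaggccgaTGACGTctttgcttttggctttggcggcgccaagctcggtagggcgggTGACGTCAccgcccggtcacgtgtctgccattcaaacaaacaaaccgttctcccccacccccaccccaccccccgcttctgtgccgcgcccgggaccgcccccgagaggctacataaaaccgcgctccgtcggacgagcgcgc

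The Gadd45b window holds an EGR match 30 to 22 bases before the start and a TATA box 46 to 41 bases before it, and the Gadd45g window holds a TATA box 27 to 22 bases before it. The Jun window has the AP-1 variant at 45 to 38 bases, and the Dusp1 window a full CRE at 143 to 136 bases with a further CRE core at 191 to 186 bases. RefSeq promoters were matched for 8 of the 10 genes (not for Egr1 and Ier2). The CRE core was in 4 of these 8 (Fos, Dusp1, Atf3 and Btg2) and in 6.47% of 32851 promoters of the same length. The full CRE, which contains the core on both strands, was in 2 (Dusp1 and Btg2) and in 1.55% of all. The EGR match was in 2 (Btg2 and Gadd45b) and in 4.7% of all, and the TATA box in 3 (Fos, Gadd45b and Gadd45g) and in 12.4%. The AP-1 variant was in Jun and in 2.93% of all promoters. Neither the AP-1 site TGANTCA (6.75% of all) nor the CArG box, the site of serum response factor (1.47%), was found in the 8 windows. With shares this low among all promoters, absence from 8 windows does not show that the genes lack such sites. Bases further upstream and the promoters of Egr1 and Ier2 were not searched. These matches describe letters and do not show that a factor was bound.

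Gadd45b, a stress sensor that NF-kB and TGF-beta signals induce and that restrains cell death kinases in hepatocytes, lies on chromosome 10 (80930073 to 80932204, plus strand, mm10). Its normalised level, in CPM (counts scaled to a common library size after TMM normalisation), was 7.33 and 7.49 CPM in the wild-type libraries and 3.22, 2.55 and 3.84 CPM in the heterozygous libraries. All 3 heterozygous libraries were thus below both wild-type libraries, and the wild-type pair was nearly equal. The means were 7.41 ± 0.110 CPM (SD, n = 2) and 3.20 ± 0.645 CPM (SD, n = 3). The log2 fold change was -1.21 (SE 0.19, 95% interval -1.63 to -0.78, edgeR adjusted p = 0.00447). The level rested on 111 and 89 counts in wild-type and 41, 42 and 66 counts in heterozygous livers.

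The Gadd45b call was kept in all 13 alternative fits, with log2 fold changes from -1.37 to -1.06. In bulk liver, fewer cells of a type and less RNA per cell cannot be told apart. Several blood cell marker lists moved with genotype beside Gadd45b. All 11 neutrophil and myeloid markers were called higher in heterozygous livers, with a summed level of 374 to 486 CPM against 127 to 186 CPM in wild-type. Of 7 B cell markers 5 were called higher (32.8 to 39.1 against 13.1 to 19.4 CPM), and of 8 erythroid markers 7 were called lower (3363 to 3867 against 5813 to 7291 CPM). Among 10 Kupffer cell and macrophage markers 2 were called lower and 0 higher, with sums that overlapped (479 to 551 against 463 to 703 CPM). Among all tested genes 6.63% were called higher and 5.41% lower. No marker of these 4 lists was at 0 in all libraries. Their part in the Gadd45b result was not tested.

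Gadd45g, the paralogue that in liver responds to fasting and cytokine signals (chromosome 13, 51846678 to 51848468, plus strand), gave the widest range of the 10. It was at 19.5 and 20.9 CPM in the wild-type libraries and at 8.48, 33.6 and 56.2 CPM in the heterozygous libraries. Heterozygous replicate 1 lay below both wild-type livers and replicates 2 and 3 above them, so the groups overlapped. The highest heterozygous value was 6.63 times the lowest, while the wild-type pair differed by 1.07 times. Its log2 fold change of 0.73 (SE 0.53, 95% interval -0.46 to 1.92) did not pass in edgeR (adjusted p = 0.412). Leaving out single heterozygous libraries moved this estimate either way. Without heterozygous replicate 1, the lowest, the log2 fold change was 1.16 and passed (adjusted p = 0.0136). Without heterozygous replicate 3, the highest, it was 0.10 (adjusted p = 0.918).

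Gadd45a, the p53-responsive founder of the family (chromosome 6, 67035096 to 67037457, minus strand), differed little in mean between the genotypes. Its libraries stood at 10.2 and 8.08 CPM in wild-type and 7.46, 9.59 and 10.3 CPM in heterozygous livers. The means were 9.16 ± 1.53 (SD, n = 2) and 9.11 ± 1.48 CPM (SD, n = 3), and the 95% interval of the log2 fold change ran from -0.37 to 0.36. The wild-type libraries lay within the heterozygous range, and a difference inside that interval was not detectable with these libraries. The lncRNA gene E230016M11Rik overlaps Gadd45a on the opposite strand (mean 11.6 counts), and whether counting used the strand is not given in the sources used here.

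**Figure D1:**
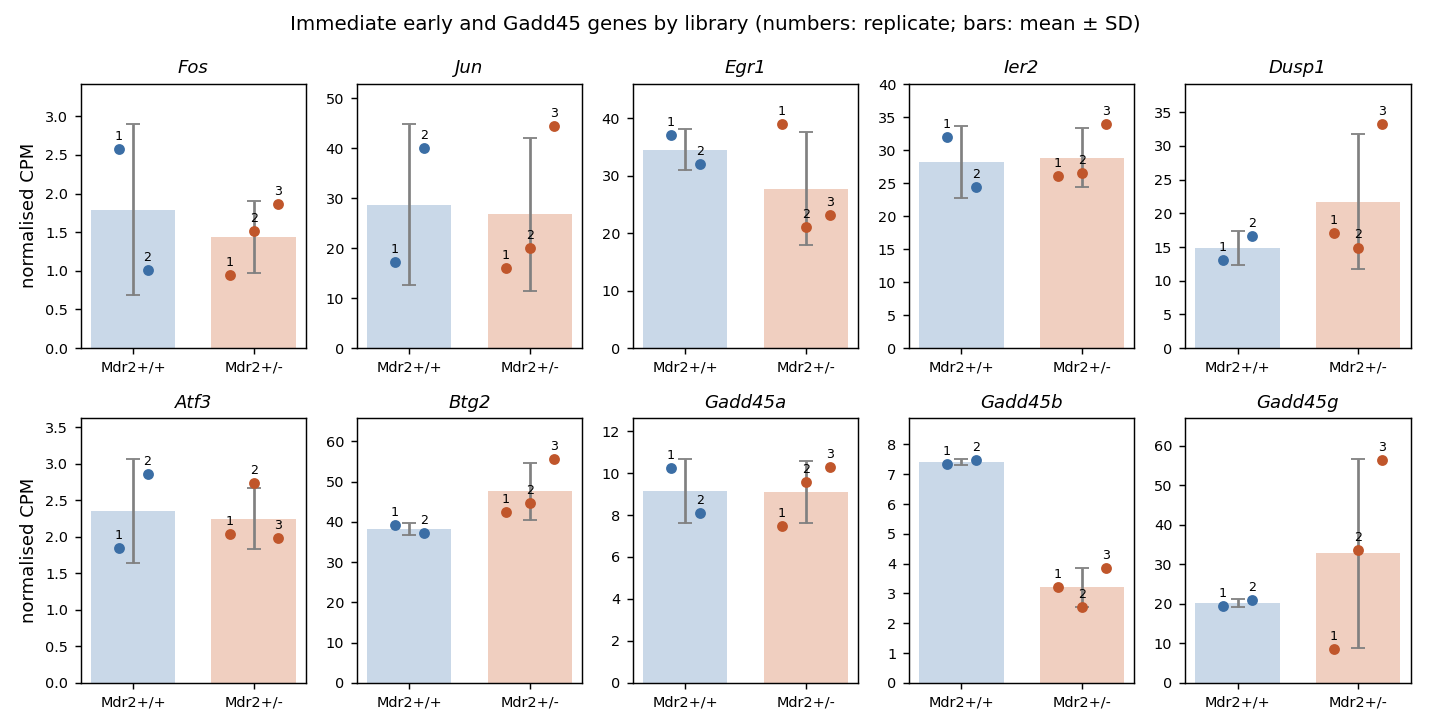
Normalised CPM of the 10 genes in each library (vertical axis, linear from 0; each panel has its own scale), with wild-type (Mdr2+/+, n = 2) and heterozygous (Mdr2+/-, n = 3) libraries as points numbered by replicate and bars for mean ± SD. Gadd45b is the panel in which all 3 heterozygous points (2.55 to 3.84 CPM) lie well below both wild-type points (7.33 and 7.49 CPM), while the heterozygous points of Gadd45g spread from 8.48 to 56.2 CPM.

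The AP-1 subunits Fos and Jun showed no genotype difference beyond their spread. Jun, the AP-1 subunit needed for hepatocyte proliferation (chromosome 4, 95049034 to 95052222, minus strand, a single-exon gene), was at 17.3 and 40.1 CPM in wild-type and at 16.0, 19.97 and 44.4 CPM in heterozygous livers. In both genotypes Jun therefore had a low and a high liver, with a highest-to-lowest ratio of 2.32 within wild-type and 2.77 within heterozygous livers. Its log2 fold change was -0.05 (SE 0.42, 95% interval -1.0 to 0.89, edgeR adjusted p = 0.952), so differences of up to about that size were not detectable. The antisense gene Junos (mean 4.14 counts) overlaps Jun.

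Fos, the partner of Jun (chromosome 12, 85473890 to 85477273, plus strand), was scarce in these livers. It was at 2.58 and 1.01 CPM in wild-type and at 0.942, 1.52 and 1.86 CPM in heterozygous livers. These values rested on 39 and 12 counts and on 12, 25 and 32 counts, and the groups overlapped. Counting alone would give an SD of about 0.32 on the log2 scale, against a measured within-genotype SD of 0.63. The log2 fold change was -0.33 (SE 0.39, 95% interval -1.22 to 0.55, edgeR adjusted p = 0.631), and it was 0.54 without wild-type replicate 1 (adjusted p = 0.554).

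Atf3, a stress-induced repressor of the same bZIP family (chromosome 1, 191170296 to 191218039, minus strand), was also low. It was at 1.85 and 2.86 CPM in wild-type and at 2.04, 2.73 and 1.98 CPM in heterozygous livers, all 3 within the wild-type range, and its log2 fold change was -0.03 (SE 0.27, 95% interval -0.63 to 0.56).

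Egr1, a zinc finger factor that growth signals induce through MAPK, was at 37.0 and 32.0 CPM in wild-type and at 39.0, 21.0 and 23.2 CPM in heterozygous livers. Heterozygous replicate 1 was the highest of all 5 libraries and the other 2 heterozygous livers were the lowest. The log2 fold change was -0.34 (SE 0.22, 95% interval -0.83 to 0.15, edgeR adjusted p = 0.349). Without heterozygous replicate 1 it was -0.64 and passed (adjusted p = 0.00804), so this result changed when a single library was left out.

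Ier2, a small nuclear protein of the early serum response (chromosome 8, 84661331 to 84662852, minus strand, a single exon), was at 32.0 and 24.4 CPM in wild-type and at 26.1, 26.6 and 34.0 CPM in heterozygous livers. The groups overlapped, with means of 28.2 ± 5.40 (SD, n = 2) and 28.9 ± 4.42 CPM (SD, n = 3). Its log2 fold change was 0.03 (SE 0.14, 95% interval -0.29 to 0.35).

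Dusp1 and Btg2 act as brakes, the first on MAPK and the second on proliferation. Dusp1 (chromosome 17, 26505590 to 26562128, minus strand) was at 13.0 and 16.6 CPM in wild-type and at 17.03, 14.9 and 33.3 CPM in heterozygous livers. Heterozygous replicate 3 was the highest, with 572 counts against 197 to 246 in the other libraries. The log2 fold change was 0.58 (SE 0.31, 95% interval -0.11 to 1.27, edgeR adjusted p = 0.257) and fell to 0.12 without heterozygous replicate 3 (adjusted p = 0.659). The annotated span of Dusp1 overlaps the opposite-strand gene Ergic1 (mean 768 counts), so the share of reads from each is uncertain if counting ignored strand.

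Btg2, an antiproliferative p53 target that also recruits mRNA deadenylases (chromosome 1, 134075170 to 134079120, minus strand), was at 39.2 and 37.3 CPM in wild-type and at 42.4, 44.8 and 55.7 CPM in heterozygous livers. All 3 heterozygous livers were above both wild-type livers. The means were 38.2 ± 1.39 (SD, n = 2) and 47.6 ± 7.10 CPM (SD, n = 3), and the log2 fold change was 0.32 (SE 0.11, 95% interval 0.07 to 0.57). This missed the threshold after adjustment over all tested genes (unadjusted p = 0.0180, edgeR adjusted p = 0.0959). With no filter on low counts both Btg2 (adjusted p = 0.0203) and Dusp1 (adjusted p = 0.0391) passed, in a fit that called 2177 of 21132 genes.

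**Figure D2:**
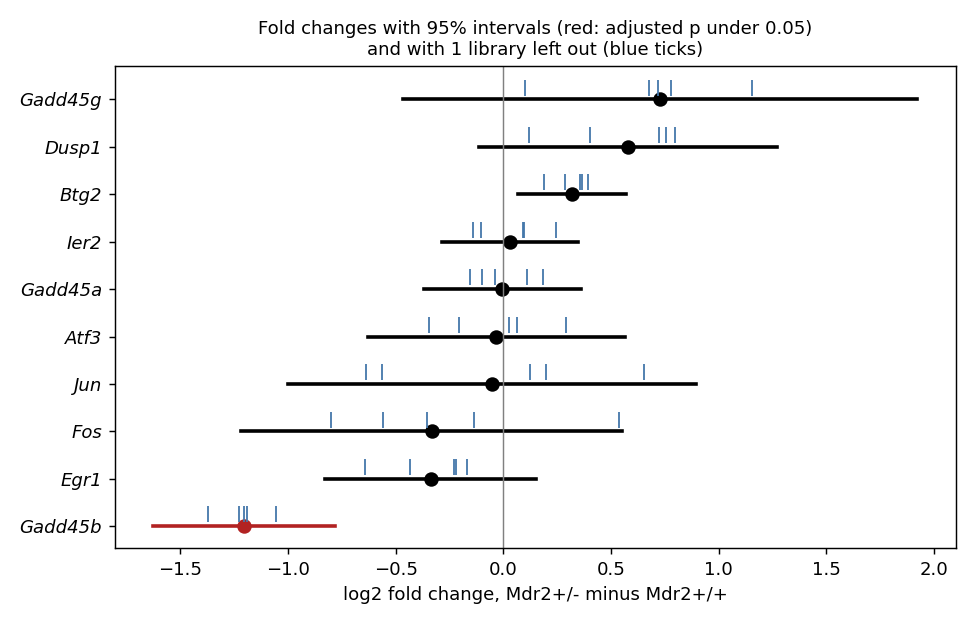
Log2 fold change of each gene, heterozygous (Mdr2+/-, n = 3) minus wild-type (Mdr2+/+, n = 2), on the horizontal axis, with genes on the vertical axis; points and bars are the edgeR estimates with 95% intervals, red marks an adjusted p under 0.05, and blue ticks are the estimates with 1 library left out. The Gadd45b ticks stay between -1.37 and -1.06, whereas the Jun ticks run from -0.64 to 0.65 and the Gadd45g ticks from 0.10 to 1.16.

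The genes differed more between libraries of a single genotype than most genes did. The within-genotype SD of log2 CPM, pooled over both genotypes, had a median of 0.36 over the 10 genes and 0.12 over all tested genes. All 10 lay above the all-gene median, and 5 lay above its 90th percentile of 0.33. These all-gene values are not matched for level. Those 5 were Gadd45g (1.14), Jun (0.80), Fos (0.63), Dusp1 (0.52) and Egr1 (0.40). Counting error is part of this spread for low genes. It amounted to about 0.08 for Gadd45g and Jun, 0.07 for Egr1 and 0.09 for Dusp1, far below their measured SDs, and to 0.25 for Atf3, whose SD was 0.31. For Gadd45b counting error was 0.18 and the measured SD 0.23. Btg2 had the smallest SD of the 10 (0.17). edgeR's trend across genes of like level gave a biological coefficient of variation of 6.81% for Gadd45g and 6.84% for Jun. Their own estimates were 39.9% and 31.6%.

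**Figure D3:**
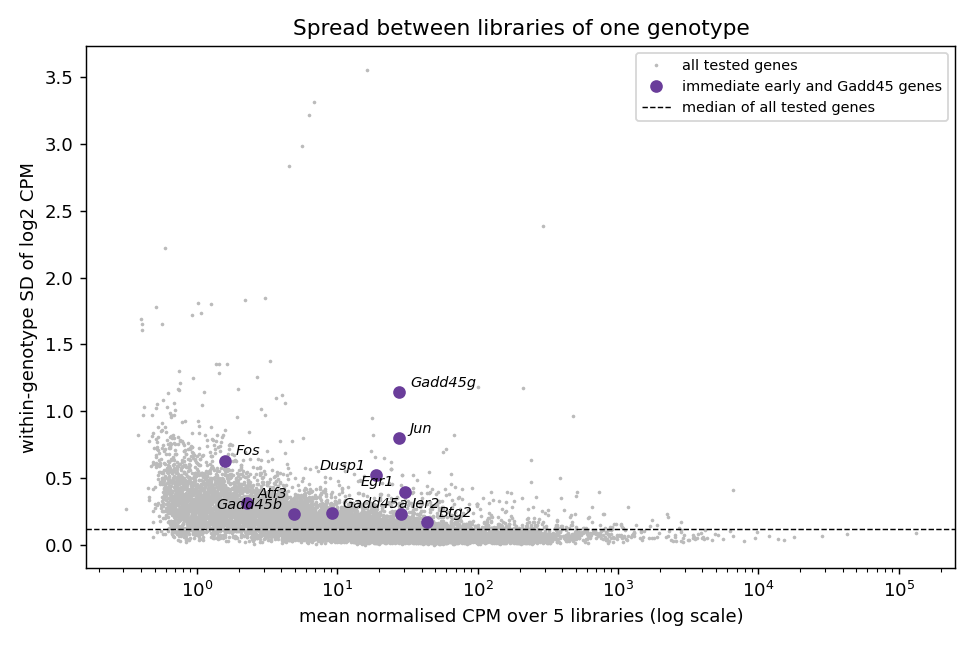
Within-genotype SD of log2 CPM (vertical axis) against mean normalised CPM over the 5 libraries (horizontal axis, log scale) for all 13959 tested genes (grey) and the 10 immediate early and Gadd45 genes (purple); the dashed line is the median of all tested genes. All 10 purple points lie above the dashed line at 0.12, with Gadd45g at 1.14 and Jun at 0.80 among the highest genes of their level.

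The members did not all peak in the same liver, but heterozygous replicate 3 held most of the high values. Of the 10 genes, 6 were highest there (Gadd45g, Jun, Dusp1, Btg2, Ier2 and Gadd45a), where 14.7% of all tested genes were highest. Of the others, Fos was highest in wild-type replicate 1, Atf3 and Gadd45b in wild-type replicate 2, and Egr1 in heterozygous replicate 1. Heterozygous replicate 1 held the lowest value of 4 genes (Fos, Jun, Gadd45a and Gadd45g) and of 21.0% of all tested genes. Between these 2 heterozygous livers the log2 CPM differed by 2.71 for Gadd45g, 1.46 for Jun, 0.96 for Dusp1 and 0.89 for Fos. Egr1 went the other way (-0.75) and Atf3 was nearly level (-0.04). The summed level of the 10 genes was 186 and 190 CPM in wild-type and 160, 176 and 263 CPM in heterozygous livers, before TMM scaling.

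Heterozygous replicates 1, 2 and 3 also differed in total counts (12991301, 16596923 and 17312851), in the same order as Gadd45g, Jun, Fos, Btg2, Ier2 and Gadd45a. These were 6 of the 10 genes, against 17.1% of all tested genes. In wild-type, where replicate 1 had 14644529 counts and replicate 2 had 11944157, Fos, Btg2, Ier2 and Gadd45a were again higher in the deeper library, while Jun and Gadd45g were higher in the shallower one. The level thus followed depth in both genotypes for 4 of the 10 genes, against 8.67% of all tested genes. The part of depth in this pattern was not tested. The deposited names place all 5 libraries in the same sequencing run and lane, and no time of day, handling time or feeding state is in the labels.

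**Figure D4:**
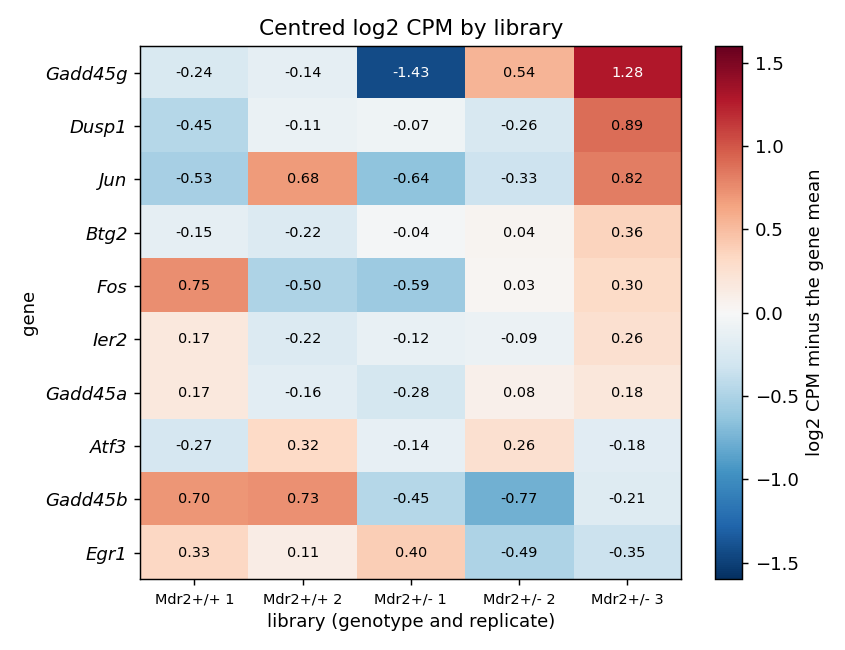
Log2 CPM of each gene minus its mean over the 5 libraries (colour scale and printed values), with genes in rows ordered by heterozygous replicate 3 and libraries in columns. Gadd45g runs from -1.43 in heterozygous replicate 1 to 1.28 in replicate 3, Jun is high in wild-type replicate 2 (0.68) and heterozygous replicate 3 (0.82), and Gadd45b is positive in both wild-type columns and negative in all 3 heterozygous columns.

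The mean profile of the 10 genes over the 5 libraries was nearest to that of Dusp6, the cytoplasmic ERK phosphatase that is itself a MAPK feedback target. Distances were Euclidean, on log2 CPM centred per gene. Dusp6 (distance 0.11) was at 41.9 and 41.7 CPM in wild-type and 33.8, 38.5 and 48.4 CPM in heterozygous livers. The next nearest were Polr3g, a subunit of RNA polymerase III (0.11), Gm16089 (0.12), Tuft1 (0.13) and Tesc (0.13). With 5 libraries and 13959 genes such near matches are a description only.

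Levels can be compared between genes only per transcript length, given here as CPM per kb of the longest annotated transcript, as mean ± SD. In wild-type livers (n = 2) Gadd45g (18.9 ± 0.922) and Ier2 (18.5 ± 3.55) were highest and overlapped, and Btg2 followed at 13.9 ± 0.507. From Btg2 down, each gene overlapped the next through Jun (9.004 ± 5.06), Egr1 (7.70 ± 0.802), Gadd45a (7.49 ± 1.25), Dusp1 (6.39 ± 1.09) and Gadd45b (5.77 ± 0.0858). Atf3 (1.19 ± 0.360) and Fos (0.850 ± 0.525) were lowest and overlapped only each other. In heterozygous livers (n = 3) Gadd45g (30.6 ± 22.3), Ier2 (18.97 ± 2.90) and Btg2 (17.4 ± 2.59) again led and overlapped. The middle genes changed places, with Dusp1 (9.40 ± 4.34) before Jun (8.40 ± 4.82), Gadd45a (7.45 ± 1.21) and Egr1 (6.19 ± 2.19), each overlapping the next. Gadd45b (2.49 ± 0.502) lay apart below Egr1, and Atf3 (1.13 ± 0.211) and Fos (0.683 ± 0.220) came last. By group means, in both genotypes Fos was the scarcest of the 10 and Jun more than 10 times as abundant per length. Not every library kept this, and Fos rested on 12 to 39 counts.

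Most of the 10 are compact genes: 8 of them span 5162 bases or less, where the median tested gene spans 22753 bases and has 8 exons. Dusp1 (56539 bases) and Atf3 (47744 bases) have longer annotated spans. The RefSeq promoter windows of both lie inside these spans (Dusp1 from 26508473, Atf3 from 191183334), so their RefSeq transcripts cover less than the annotated span. The pentamer ATTTA, the core of AU-rich elements that speed mRNA decay, occurs in the annotated 3' UTR of 7 of the 10, against 70.0% of 12806 tested genes with such a UTR. The longer form TATTTAT occurs in 6 of the 10 (Fos, Jun, Dusp1, Atf3, Btg2 and Gadd45a), against 29.8% of tested genes. The 3' UTRs of Ier2, Gadd45b and Gadd45g hold neither, and that of Egr1 holds the pentamer only. The 3 Gadd45 genes share a 4-exon structure with transcripts of 1223 (Gadd45a), 1284 (Gadd45b) and 1071 bases (Gadd45g).

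Other AP-1 and Maf subunits were compared in the same fit. Of 14 listed genes 12 were tested and 0 were called in edgeR, DESeq2 or limma. In edgeR 12% of all tested genes were called in either direction, so 0 of so few genes does not show a lack. At an unadjusted p under 0.05, 2 were higher and 4 lower. Batf2 (log2 fold change -1.08), Mafk (-0.31) and Jund (0.32) were among those with the smallest p-values and did not pass (edgeR adjusted p = 0.0870 to 0.147). Without heterozygous replicate 1 Jund passed (0.45, adjusted p = 0.0166), as it did with no filter on low counts (0.32, 0.0277). Junb, named after its values were seen, stood at 12.5 ± 4.52 and 12.1 ± 2.10 CPM, and Fosl1 was at 0 counts in all libraries.

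Among 32 tested further early-response genes 1 was lower and 0 higher, a share of 3.13% lower against 5.41% of all tested genes. At an unadjusted p under 0.05, 2 were lower and 1 higher. The gene that fell was Nab2, the corepressor that binds Egr proteins and is itself an Egr1 target. Nab2 was at 11.2 and 12.8 CPM in wild-type and 9.42, 7.10 and 8.32 CPM in heterozygous livers (log2 fold change -0.54, SE 0.14, edgeR adjusted p = 0.0357). Nab2 lost its call in 6 of 13 alternatives. These were the omission of any library other than heterozygous replicate 1 (adjusted p = 0.0744 to 0.163), DESeq2 (0.0737) and a replicate block (0.0790). Irf1, an interferon-responsive factor (log2 fold change -0.69, adjusted p = 0.0660), Rhob (0.26, 0.0970) and the matricellular gene Cyr61 (-0.31, 0.182) did not pass. Without wild-type replicate 2 the log2 fold change was -1.03 for Irf1 and 0.42 for Rhob. Irf1 passed without heterozygous replicate 1 (-0.85, adjusted p = 0.0469) and with no filter on low counts (-0.69, 6.1e-04). Rhob also passed with no filter (0.27, 0.0445).

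Wild-type replicate 2 and heterozygous replicate 3, the livers with high Jun, held the highest value of their genotype for 11 of the 32 (34.4%) and for 14.9% of all tested genes. They held the lowest value for 4 of the 32 (Hbegf, Nfil3, Plk2 and Zfp36l2), which is 12.5%, against 15% of all tested genes. Of the 11, 3 with a wide range are given here, chosen after their values were seen. The growth regulator Myc was at 10.4 and 27.8 CPM in wild-type and 7.22, 17.1 and 25.9 CPM in heterozygous livers. The clock and glucocorticoid-responsive gene Per1 was at 14.6 and 34.7 CPM and at 12.7, 20.1 and 25.4 CPM. Zfp36, which binds AU-rich elements and destabilises their mRNAs, was at 24.8 and 36.7 CPM and at 20.2, 26.8 and 34.8 CPM. Irf1 ran the other way in wild-type, at 50.4 and 28.3 CPM, with 30.1, 21.2 and 22.9 CPM in heterozygous livers.

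Of the kinases upstream, 0 of 21 MAPK cascade genes were called in edgeR, DESeq2 or limma. In edgeR 12% of all tested genes were called in either direction, and 0 in a list this small does not show a lack. At an unadjusted p under 0.05, 1 was higher and 1 lower. Map2k4, a kinase that activates JNK, went from 43.5 ± 1.34 to 39.1 ± 0.333 CPM (log2 fold change -0.15, edgeR adjusted p = 0.154). Mapk14, encoding p38 alpha, did not pass either (0.17, adjusted p = 0.187).

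Of 9 other tested dual-specificity MAPK phosphatases 2 rose and 0 fell (22.2% higher, against 6.63% of all tested genes), with 2 higher and 2 lower at an unadjusted p under 0.05. Dusp16, which acts on the stress kinases JNK and p38, was at 26.5 and 24.8 CPM in wild-type and 38.8, 45.0 and 40.5 CPM in heterozygous livers. All 3 heterozygous livers were higher (log2 fold change 0.69, SE 0.09, edgeR adjusted p = 0.00167), and the call held in all 13 alternative fits. Dusp2, a nuclear phosphatase abundant in leukocytes, rose from 0.850 ± 0.0123 to 1.94 ± 0.212 CPM (log2 fold change 1.19, adjusted p = 0.0216). Its wild-type values, 0.859 and 0.841 CPM, rest on few counts, since 3 counts is 0.205 and 0.251 CPM in those libraries. The small wild-type SD therefore says little about the spread between livers. Dusp2 lost its call in 6 of 13 alternatives, among them the omission of any library other than heterozygous replicate 1 (adjusted p = 0.0582 to 0.114). The summed neutrophil and B cell levels given above were also higher in heterozygous livers. The summed T and NK cell markers were lower there (6.51 to 6.76 against 7.09 to 10.1 CPM), and the Kupffer cell and macrophage sums overlapped. The part of these cells in the Dusp2 result was not tested. Dusp9 (-1.22, adjusted p = 0.0860) and Dusp5 (-0.50, 0.141) did not pass. Dusp9 did pass without heterozygous replicate 1 (-1.73, 0.0254), in limma (-1.38, 0.0461) and with no filter on low counts (-1.22, 0.0182).

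Factors that act directly on immediate early promoters included 2 called genes of 12, both higher (16.7%, against 6.63% of all tested genes), with 3 higher and 0 lower at an unadjusted p under 0.05. The histone acetyltransferase Crebbp rose from 10.5 ± 0.402 to 16.1 ± 1.74 CPM (log2 fold change 0.61, edgeR adjusted p = 0.0127). Mkl2, a coactivator of serum response factor, rose from 22.4 ± 2.05 to 29.7 ± 1.62 CPM (0.40, adjusted p = 0.0197). Mkl1 (0.27) and Crtc2 (0.20) did not pass (adjusted p = 0.160 and 0.220). Without wild-type replicate 1 Crebbp lost its call (0.0574), and without wild-type replicate 2 both did (Crebbp 0.0610, Mkl2 0.103). Crem, a CRE-binding factor, passed without heterozygous replicate 1 (0.60, 0.0157). Mkl2 also lost its call with an offset for transcript length (0.0696).

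The p53 response, which shares Gadd45a and Btg2 with this group, was represented by 18 tested genes, of which 3 fell and 0 rose (16.7% lower, against 5.41% of all tested genes). They were the apoptosis effector Bax (20.7 ± 2.07 to 16.2 ± 0.901 CPM, log2 fold change -0.36, adjusted p = 0.0459), the death receptor Tnfrsf10b (3.43 ± 0.0958 to 2.02 ± 0.335 CPM, -0.75, adjusted p = 0.0477) and the nuclease Aen (19.4 ± 1.92 to 15.4 ± 0.520 CPM, -0.34, adjusted p = 0.04998). With any single library left out 0 of the list were called, and DESeq2 also called 0 (limma called 3 lower). At an unadjusted p under 0.05, 3 were lower and 0 higher in edgeR. Perp did not pass (-0.14, adjusted p = 0.200).

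Atf4, the factor that drives Atf3 in the integrated stress response, and its targets made up 13 tested genes. Of these, 2 were lower and 0 higher (15.4% lower, against 5.41% of all tested genes), with 6 lower and 1 higher at an unadjusted p under 0.05. Atf4 itself did not pass (log2 fold change -0.19, edgeR adjusted p = 0.107). The 2 genes that fell are both enzymes of amino acid synthesis. Psat1, of the serine pathway, was at a log2 fold change of -0.78 (18.2 ± 1.89 to 10.6 ± 0.940 CPM, edgeR adjusted p = 0.00369). Asns, which makes asparagine, was at -0.72 (13.5 ± 1.31 to 8.22 ± 0.726 CPM, adjusted p = 0.00653). Both calls held in all 13 alternative fits. Phgdh (-0.63, adjusted p = 0.0533) and Trib3 (-0.72, 0.0969) did not pass. Phgdh passed in 4 alternatives (no filter 0.0157, at least 10 counts in every library 0.0481, library size alone 0.0417, limma 0.0438), and with no filter Chac1 (1.13, 0.0247) and Ddit4 (0.61, 0.0357) passed as higher. Single omissions added a higher gene: Vldlr without wild-type replicate 2 (0.72, 0.0454) and Chac1 without heterozygous replicate 1 (1.49, 0.0452).

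Among 11 genes whose proteins bind Gadd45 proteins or regulate Gadd45 genes, 2 rose and 2 fell (18.2% each way, against 6.63% higher and 5.41% lower among all tested genes). The nuclear receptors Rxra (202 ± 9.54 to 272 ± 5.02 CPM, log2 fold change 0.43, edgeR adjusted p = 0.00384) and Ppara (52.6 ± 2.41 to 95.8 ± 18.0 CPM, 0.86, adjusted p = 0.00517) rose. The replication clamp Pcna (84.7 ± 5.05 to 61.9 ± 3.11 CPM, -0.45, adjusted p = 0.00422) and the mitotic kinase Cdk1 (28.9 ± 1.67 to 22.5 ± 0.789 CPM, -0.37, adjusted p = 0.0186) fell. Omitting wild-type replicate 1 left 1 higher and 1 lower gene, since Ppara (0.0503) and Cdk1 (0.123) lost their calls. Cdk1 also lost its call without heterozygous replicate 2 (0.0714) and in DESeq2 (0.0515). At an unadjusted p under 0.05, 2 were higher and 3 lower. Map3k4, Mapk14 and Cdkn1a of this list also stand in others above. Pcna and Cdk1 are proliferation genes, and the erythroid markers, given above, were lower in the same livers. Their part in this result was not tested.

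As a check of the genotype, Abcb4 was lower in each heterozygous library than in both wild-type libraries (162 ± 0.0278 against 97.0 ± 4.07 CPM, log2 fold change -0.74, edgeR adjusted p = 3.4e-04). The 7 matched hepatocyte markers summed to 163760 to 181060 CPM in the 5 libraries.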

How the data were processed

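Libraries of total RNA were made with the Illumina TruSeq kit and sequenced on a HiSeq2000, per the labels' protocols. TopHat and the build mm10 stand in the processing notes of the submitters. What tool and annotation gave the counts, and whether strand was used, is not given in the sources used here. Each of the 5 deposited files gives the authors' estimated counts, not scaled, for 36401 Ensembl genes. Library totals were 11944157 to 17312851, where a floor of 3 counts is 0.173 to 0.251 CPM (counting error only). Libraries of a genotype differed by more than sampling noise (chi-square per degree of freedom 5.30 to 8.86), so none was merged as a duplicate deposit. This does not tell separate pups from repeat libraries.

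Counts were rounded, filtered by filterByExpr (minimum count 10, leaving 13959 genes and 99.9% of counts), scaled by TMM and tested in edgeR 4.0.16 under R 4.3.3 (quasi-likelihood, two-sided, no covariate). The Benjamini-Hochberg threshold was 0.05. SE is the size of the log2 fold change over the root of F. Log2 CPM used a prior count of 2. Alternatives were other filters, RLE factors, library size alone, an offset for transcript length, limma 3.58.1, DESeq2 1.42.0, a replicate block and each library left out, and the scripts were tested on simulated data. Gene models came from GENCODE M21, promoters from RefSeq (GRCm38.p6).

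The 10 genes and all lists were chosen with earlier results of these data known. Named were the 10 genes, up to 4 genes per pathway list by p-value, the 5 nearest profiles and Abcb4. Some genes the rule names are not reported here. A symbol with several rows was read from the row with most counts. Of the other marker lists, T and NK cell (5 tested), endothelial (7), stellate (7), cholangiocyte (5) and megakaryocyte (5) had 0, 0, 1, 0 and 1 higher and 1, 1, 0, 0 and 0 lower. Hepatocyte markers (7) had 2 higher and 1 lower. The shares of all tested genes were 6.63% higher and 5.41% lower.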

Additional observations from a re-analysis of the deposited data

How the results depend on the processing

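Gadd45b kept its direction and its call in all 13 alternative fits. The number of the 10 genes called was 3 with no filter on low counts (Gadd45b, Dusp1 and Btg2), where 2177 of 21132 genes were called. With single libraries left out it ran from 1 to 3, the 3 being Gadd45b, Egr1 and Gadd45g without heterozygous replicate 1. It was 1 in the other fits. Over all tested genes 1680 were called, and 697 (without wild-type replicate 1) to 1174 with a single library left out. Leaving out single libraries also moved log2 fold changes across 0, and the lowest and highest were -0.34 and 0.29 for Atf3, -0.15 and 0.18 for Gadd45a, -0.14 and 0.24 for Ier2, -0.64 and 0.65 for Jun, and -0.80 and 0.54 for Fos. With an offset for transcript length Atf3 turned to 0.0173 and Gadd45a to 0.0930, with no filter Gadd45a turned to 0.00249, and with library size alone Ier2 turned to -0.00994. The cause of these turns was not tested. Scaling by library size alone gave 704 genes higher and 936 lower, against 925 and 755, and moved the median of all genes to -0.04.

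Both genotypes use the replicate numbers 1 and 2, and no label says what a number shares. Deviations of same-numbered libraries correlated at 0.0304 and 0.0286. Replicate 3 exists only in heterozygous livers, so with the block that library adds nothing to the genotype estimate. The replicate block fit is therefore not separate from the omission of heterozygous replicate 3, and its shifts cannot be assigned to shared numbers. With the replicate block 1277 genes and 1 of the 10 were called, Ier2 turned to -0.0919, Gadd45g to -0.0933 and Atf3 to 0.0244, the further early-response genes called lower went from 1 (Nab2, which lost its call at 0.0790) to 4 (Irf1, Myc, Per1 and Zfp36), and no p53 target was called. Low counts limit Fos and Atf3 most.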
